A study of Mus musculus with 12 samples.

Results

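The heat shock proteins examined here are the products of 10 mouse genes, Hspa1a, Hspa1b, Hspb1, Hspb8, Cryab, Hsph1, Hsp90aa1, Hspd1, Hspe1 and Bag3, followed in embryonic stem cells without Id1 and after depletion of Zrf1. Members were all array probes whose listed gene name was 1 of these 10, which gave 13 of 55681 non-control probes. These probes carried 9 of the 10 names, so that 9 of the 22590 genes tested were members. Hspa1b had no probe of its own name among those analysed here, and the single Hspa1a probe lists transcripts of both Hspa1a and Hspa1b, so the transcripts of these 2 genes cannot be told apart. All 13 probes were well above background on all 12 arrays.

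Total RNA was hybridised to 12 one-colour expression arrays, 4 for each of 3 groups. The Id1KO_Zrf1KD cells were Id1 knockout embryonic stem cells infected with lentiviral vectors that encode hairpins against Zrf1 and then selected stably with puromycin. The Id1KO cells were the knockout embryonic stem cells without this treatment, and the WT cells were wild type embryonic stem cells. All 3 groups were cultured in GMEM with fetal bovine serum and leukaemia inhibitory factor. The labels describe the 4 samples per group as biologically independent and name 1 line per genotype, so the spread within a group is that of samples of 1 line. Since the labels name no control vector for Id1KO cells, the effects of losing Zrf1 and of viral infection with selection cannot be told apart in Id1KO_Zrf1KD against Id1KO. Group names below are those of the labels.

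Heat shock proteins are chaperones that bind unfolded or misfolded proteins and keep them from aggregating, and many of them are induced when the transcription factor HSF1 binds heat shock elements in their promoters. HSP70 proteins work in cycles with J-domain proteins, which deliver substrates, and with nucleotide exchange factors such as the HSP110 and BAG proteins, while small heat shock proteins hold substrates without using ATP. HSP60 and HSP10 together form the folding chamber of the mitochondrial matrix. Embryonic stem cells are known for high basal levels of several chaperones. Zrf1, the product of the gene listed on the array as Dnajc2, itself belongs to the J-domain proteins, and in human cells it works at the ribosome with the HSP70 protein HSPA14.

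Heat shock elements are arrays of the unit GAA in alternating orientation. The stretches below are shown because they are the upstream stretches of the members that hold a pair of such units, spelled GAANNTTC or TTCNNGAA. They were read 5′ to 3′ along the gene from RefSeq promoter windows of build GRCm38.p6, which reach from 250 bases before to 50 bases after an annotated start, and capitals mark the matches. The Hspa1a and Hspa1b lines are chr17:34972227-34972286 and chr17:34959309-34959368, both on the minus strand, and cover positions -130 to -71 from each start. The Hspb1 line is chr5:135887786-135887845 on the plus strand, the Hsph1 line chr5:149636337-149636396 on the minus strand, and the Hspe1 line chr1:55088053-55088082 on the plus strand.
Hspa1a: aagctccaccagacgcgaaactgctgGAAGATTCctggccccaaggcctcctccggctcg
Hspa1b: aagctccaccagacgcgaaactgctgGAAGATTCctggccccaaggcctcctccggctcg
Hspb1: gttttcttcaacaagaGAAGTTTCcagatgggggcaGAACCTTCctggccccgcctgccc
Hsph1: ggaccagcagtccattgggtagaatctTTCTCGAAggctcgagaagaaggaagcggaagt
Hspe1 and Hspd1: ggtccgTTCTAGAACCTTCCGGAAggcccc

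The Hspa1a and Hspa1b windows were identical at 296 of 300 bases, and the printed stretches of both genes have the same letters. Hspb1 held 2 separate pairs, which begin at positions -117 and -97. The stretch printed for Hspe1 holds overlapping pairs that together make a run of alternating units from position -89 to -72 before the Hspe1 start. Hspd1 is transcribed away from Hspe1 on the other strand, and the same bases lie at positions -144 to -127 from 1 of its 2 annotated starts, which is 216 bases from the Hspe1 start. The chaperonin pair thus shares 1 stretch that matches a heat shock element, between the Hspe1 start and this Hspd1 start. The window of the other Hspd1 start holds no pair.

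Windows were given for 8 of the 10 genes. Of their 10 windows, 9 held a GAANNTTC or TTCNNGAA pair on either strand, at least 1 per gene, against 15.1% of all 32851 windows. These 9 are not independent, since the Hspa1a and Hspa1b windows are nearly alike, the Hsph1 windows overlap and Hspd1 and Hspe1 share bases. In Hspb8 and Bag3 the pair lay after the annotated start, and Hsph1 held pairs on both sides. Both motifs read the same on the 2 strands, and GAANNTTC alone was found in 7.86% of all windows and TTCNNGAA alone in 8.52%. Runs of 3 alternating units, spelled GAANNTTCNNGAA or its reverse complement TTCNNGAANNTTC, overlap the pairs. They were found in 4 of the 10 member windows, of Hsph1, Hspd1 and Hspe1, against 0.603% of all windows. The Hsph1 run lies after its 2 annotated starts, at positions 16 to 28 and 37 to 49, and outside the printed stretch. A match describes the letters of a window and does not show that a factor binds there.

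**Figure D1:**
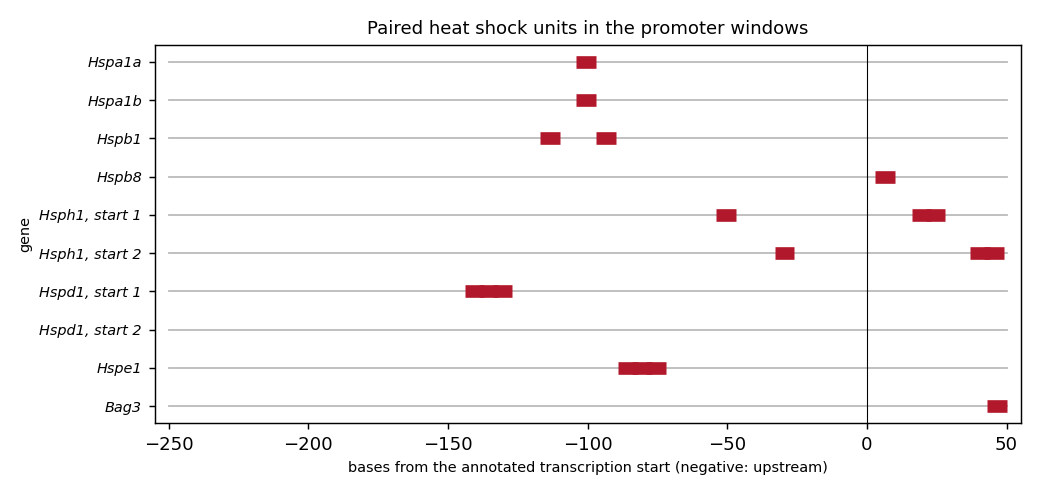
Positions of GAANNTTC and TTCNNGAA pairs (red) in the 10 promoter windows of 8 heat shock genes, in bases from the annotated start, with a row per window. The pairs of Hspa1a, Hspa1b, Hspb1, Hspe1 and 1 start of Hspd1 lie upstream of the start, while those of Hspb8 and Bag3 lie after it. Hsph1 holds pairs on both sides, and the second Hspd1 window holds none.

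Facts of the arrays that bear on these genes were as follows. The arrays came from 3 slides, and each slide held all 3 groups. Slides 1, 2 and 3 held 2, 1 and 1 Id1KO_Zrf1KD arrays, 1, 1 and 2 Id1KO arrays, and 1, 1 and 2 WT arrays. A difference within a slide thus rests on 1 or 2 arrays per group. The 75th percentile of the processed signal, to which every array was scaled, ranged from 554.0 to 596.5 in Id1KO_Zrf1KD, from 393.3 to 491.8 in Id1KO and from 440.7 to 550.2 in WT. Dnajc2, the targeted gene of the knockdown, had levels of -0.34 to -0.15 in Id1KO_Zrf1KD and 1.80 to 2.0 in Id1KO. It fell by 2.16 on the log2 scale (SE 0.07, adjusted p = 9.65e-10, limma). The Id1 probe had levels of 0.86 to 1.58 in Id1KO and 0.64 to 1.05 in WT, which overlap, with a log2 fold change of 0.37 and an adjusted p of 0.0519 (limma). The labels do not say which part of Id1 was deleted, so this probe cannot check the knockout. All 10 embryonic stem cell markers were well above background in every group, and their summed level, in units of the array's 75th percentile, was 959.5 to 974.2 in Id1KO_Zrf1KD, 1188 to 1317 in Id1KO and 1167 to 1328 in WT. The Id1KO_Zrf1KD sums lay below those of the other groups without overlap, but a sum is weighted towards the brightest probes. Dppa5a, the brightest of the 10, had levels of 8.85 to 8.88 in Id1KO_Zrf1KD, 9.44 to 9.65 in Id1KO and 8.89 to 9.14 in WT. Of the 10 markers, 5 rose and 4 fell in Id1KO_Zrf1KD against Id1KO, and 3 rose and 6 fell in Id1KO against WT. Of all genes 32.3% rose and 39.8% fell in the first comparison, and 42.5% and 29.6% in the second.

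Other cell type markers moved with the groups, beside 32.3% of all genes higher and 39.8% lower in Id1KO_Zrf1KD than in Id1KO. All marker lists, the members and the gene lists below were chosen with earlier results of these data known. Their counts beside the shares of all genes are therefore descriptions and not tests. The summed level of 15 fibroblast markers, in units of the array's 75th percentile, was 121.5 to 129.1 in Id1KO_Zrf1KD, 28.1 to 29.7 in Id1KO and 37.6 to 40.8 in WT, and 15 of the 15 were higher in Id1KO_Zrf1KD than in Id1KO. Of these 15 markers, Lum alone had no Id1KO or WT array well above background. The summed level of 12 extraembryonic endoderm markers was 399.9 to 413.5 in Id1KO_Zrf1KD, 122.1 to 128.4 in Id1KO and 220.4 to 233.8 in WT, and 12 of the 12 were higher in Id1KO_Zrf1KD than in Id1KO. In these bulk samples a change in the number of cells of a type cannot be told apart from a change in RNA per cell, and the part of these markers in the results below was not tested.

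A level below is log2 of a probe's processed signal minus log2 of the array's 75th percentile, so a level of 1 is a signal 2-fold above that percentile. Levels are compared between groups for 1 probe at a time, since different probes bind with different strength. Differences are log2 fold changes with their standard error (SE). Adjusted p-values are from limma's two-sided moderated test with Benjamini-Hochberg adjustment over all 22590 genes, and "passed" means an adjusted p under 0.05.

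In Id1KO_Zrf1KD against Id1KO, 7 of the 9 measured members rose, 1 fell and 1, Hsp90aa1, did not pass. With quantile normalization, normexp with quantile normalization and the authors' deposited values 8 rose, since Hsp90aa1 passed as higher under each. The small heat shock protein Cryab and the inducible HSP70 gene Hspa1a had the largest increases, and Hspe1, the mitochondrial co-chaperonin, was the member that fell. With normexp and quantile normalization Hspb1 (log2 1.24) stood above Hspa1a (1.15). Of all genes tested, 32.3% rose and 39.8% fell, so that 72.1% changed. The median log2 fold change was 0.67 over the members and -0.09 over all genes. The 4 Id1KO_Zrf1KD values lay wholly above the 4 Id1KO values in 7 of the 9 members, against 30.4% of all genes. They lay wholly below in 1 member, against 36.1% of all genes, and overlapped for Hsp90aa1.

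In Id1KO against WT, 4 of the 9 members rose and 5 fell, against 42.5% and 29.6% of all genes, and 72 percent of all genes changed in this comparison. Hspb8 had by far the largest decrease, and Hspe1 the largest increase. The median log2 fold change was -0.29 over the members and 0.15 over all genes. This shift of all genes was 0.02 with quantile normalization. Under quantile normalization, normexp with quantile normalization and in the authors' deposited values, 2 members rose in place of 4 and 5 fell. With quantile normalization 35.2% of all genes were higher and 34.7% lower in this comparison.

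In Id1KO_Zrf1KD against WT, 5 of the 9 members rose, 1 fell and 3 did not pass, against 32.4% of all genes higher, 32.2% lower and 64.6% changed. Cryab and Hspa1a had the largest increases, and Hspb8 was the 1 member that fell. The comparisons of Id1KO with WT and of Id1KO_Zrf1KD with Id1KO share the 4 Id1KO arrays, so opposite signs in the 2 are not independent of each other.

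**Figure D2:**
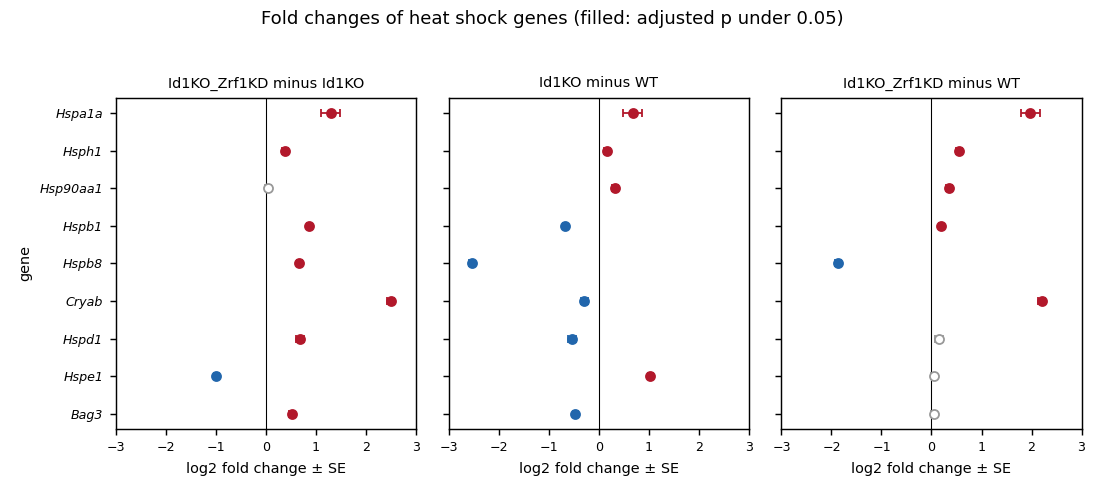
Log2 fold changes with standard errors (horizontal bars, often smaller than the point) of the 9 measured heat shock genes in 3 comparisons of 4 against 4 arrays. Red points passed as higher, blue points passed as lower and open grey points did not pass at an adjusted p of 0.05. Cryab lies at 2.50 and Hspe1 at -0.99 in Id1KO_Zrf1KD against Id1KO, and Hspb8 lies at -2.54 in Id1KO against WT.

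Hspa1a, with its copy Hspa1b, encodes the stress-inducible cytosolic HSP70 that is nearly absent from many unstressed cells. Its probe lies at chr17:35107117-35107176 on the minus strand of build mm9, and its sequence is shown because it stands for both genes.
Hspa1a probe: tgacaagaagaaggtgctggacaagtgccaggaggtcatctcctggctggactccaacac
The levels were 0.68, 0.66, 0.43 and 0.69 in Id1KO_Zrf1KD, -1.28, -0.68, -0.29 and -0.49 in Id1KO, and -1.13, -1.20, -1.53 and -1.60 in WT. The 4 Id1KO_Zrf1KD arrays were above all others, while Id1KO replicate 1 lay within the WT range. The log2 fold change was 1.30 (SE 0.19, adjusted p = 9.00e-05) in Id1KO_Zrf1KD against Id1KO, a 2.46-fold increase, and 0.68 (SE 0.19, adjusted p = 0.00773) in Id1KO against WT. Against WT, Id1KO_Zrf1KD was 3.94-fold higher. The order of the levels was thus Id1KO_Zrf1KD, Id1KO and WT, and Hspa1a was the most variable member within the Id1KO group (SD 0.43, n = 4). Within slides the log2 fold change of Id1KO_Zrf1KD over Id1KO was 0.98 to 1.41.

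Hsph1 encodes an HSP110 protein, a relative of HSP70 that acts as its nucleotide exchange factor and helps to dissolve aggregates. Its brighter probe had levels of 4.50, 4.50, 4.44 and 4.24 in Id1KO_Zrf1KD, 4.08, 4.0, 4.08 and 4.02 in Id1KO, and 3.89, 3.91, 3.87 and 3.81 in WT. The groups were ordered as for Hspa1a and did not overlap. The steps were small, 1.30-fold in Id1KO_Zrf1KD over Id1KO (log2 0.38, SE 0.06, adjusted p = 0.000176) and 1.13-fold in Id1KO over WT (log2 0.17, SE 0.06, adjusted p = 0.0235). A second Hsph1 probe, elsewhere in the transcript, gave log2 fold changes of 0.41 and 0.21 in the same 2 comparisons. The Id1KO increase over WT did not hold at an adjusted p of 0.05 without WT replicate 4 (0.0643), without Id1KO replicate 1 (0.0559) or without Id1KO replicate 3 (0.0539), nor under the 3 other scalings, where the log2 fold change was 0.08 to 0.09 (adjusted p 0.299 to 0.348).

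Bag3 encodes a co-chaperone that links HSP70 to small heat shock proteins, Hspb8 above all, and directs damaged filament proteins to autophagy. The levels were 2.92, 2.94, 3.01 and 3.09 in Id1KO_Zrf1KD, 2.44, 2.49, 2.56 and 2.42 in Id1KO, and 2.95, 2.85, 3.01 and 2.97 in WT. Id1KO was the low group, and the Id1KO_Zrf1KD and WT values overlapped. Bag3 rose 1.43-fold in Id1KO_Zrf1KD over Id1KO (log2 0.51, SE 0.05, adjusted p = 6.13e-06) and fell by 0.47 on the log2 scale in Id1KO against WT (SE 0.05, adjusted p = 1.27e-05). Between Id1KO_Zrf1KD and WT the difference of 0.05 (SE 0.05) did not pass (adjusted p = 0.475).

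Hsp90aa1 encodes the inducible cytosolic HSP90, which matures kinases and steroid receptors. It had levels of 7.84, 7.89, 8.02 and 7.94 in Id1KO_Zrf1KD, 7.79, 7.95, 7.87 and 7.94 in Id1KO, and 7.63, 7.45, 7.62 and 7.59 in WT. The first 2 groups overlapped and both lay above all WT arrays. Their log2 fold changes over WT were 0.35 and 0.32 (SE 0.06 each, adjusted p = 0.000295 and 0.000541), and Id1KO_Zrf1KD against Id1KO gave 0.03 (SE 0.06, adjusted p = 0.621). This order rests on the scaling. Under the 3 other scalings Id1KO_Zrf1KD passed as 0.39 to 0.48 higher than Id1KO. With quantile normalization the difference between Id1KO and WT was -0.13 (adjusted p = 0.0536) and Id1KO_Zrf1KD was 0.48 above Id1KO (adjusted p = 1.80e-05), while Id1KO_Zrf1KD stayed 0.34 above WT. The other cytosolic HSP90 gene, Hsp90ab1, had log2 fold changes of 0.03 in Id1KO_Zrf1KD against Id1KO (adjusted p = 0.640) and -0.15 in Id1KO against WT (adjusted p = 0.0236).

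**Figure D3:**
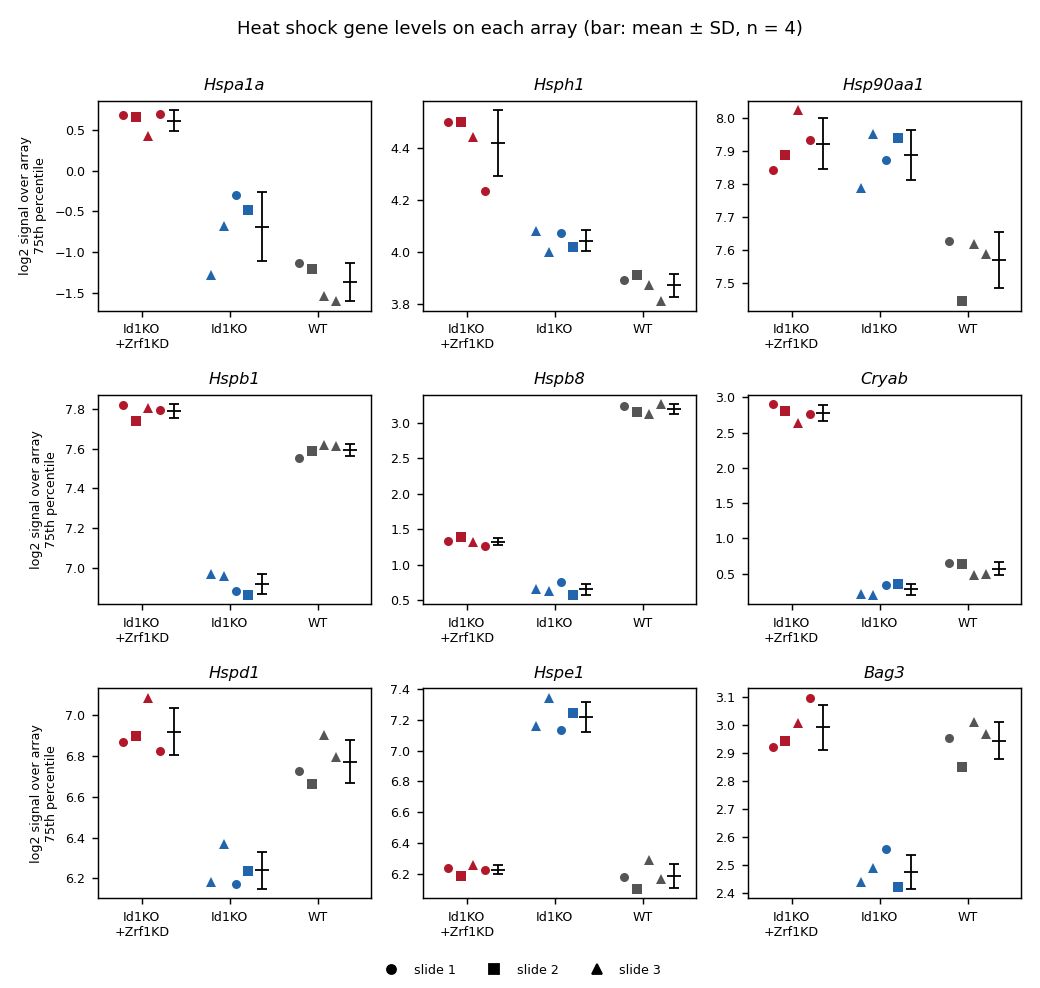
Level (log2 processed signal over the array's 75th percentile) of the brightest probe of 9 heat shock genes on each of 12 arrays, with a panel per gene, its own axis in each panel, and a marker shape per slide. The bar beside each group is the mean ± SD of its 4 arrays. Hspe1 is high in Id1KO alone, while Hspd1, Hspb1 and Bag3 are low there and Hspb8 is high in WT.

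Hspb1, the mouse HSP25, is a small heat shock protein that caps and protects actin filaments. The levels were 7.82, 7.74, 7.80 and 7.79 in Id1KO_Zrf1KD, 6.97, 6.96, 6.89 and 6.87 in Id1KO, and 7.55, 7.59, 7.62 and 7.61 in WT. The 3 groups did not overlap, with Id1KO lowest and Id1KO_Zrf1KD highest, and the largest SD within a group was 0.05 (n = 4). Hspb1 rose 1.83-fold in Id1KO_Zrf1KD over Id1KO (log2 0.87, SE 0.04, adjusted p = 8.04e-09) and fell by 0.67 on the log2 scale in Id1KO against WT (SE 0.04, adjusted p = 4.77e-08). The remaining difference of 0.20 between Id1KO_Zrf1KD and WT also passed (SE 0.04, adjusted p = 0.00109). With quantile normalization the decrease in Id1KO against WT was larger, -1.03.

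Hspb8 encodes the small heat shock protein that forms a complex with Bag3. The levels were 1.33, 1.39, 1.32 and 1.26 in Id1KO_Zrf1KD, 0.65, 0.63, 0.76 and 0.57 in Id1KO, and 3.23, 3.14, 3.13 and 3.26 in WT. Both knockout groups lay far below WT. In Id1KO it was 5.81-fold lower than in WT (log2 -2.54, SE 0.05, adjusted p = 1.79e-11), and in Id1KO_Zrf1KD it was 3.65-fold lower than in WT (log2 -1.87, SE 0.05, adjusted p = 1.50e-10). The rise in Id1KO_Zrf1KD over Id1KO was 1.59-fold (log2 0.67, SE 0.05, adjusted p = 5.44e-07). Hspb8 and its partner Bag3 thus both fell in Id1KO and both rose in Id1KO_Zrf1KD over Id1KO, but only Hspb8 passed as different from WT in Id1KO_Zrf1KD, and the difference between the 2 genes was not tested.

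Cryab encodes alpha-B-crystallin, a small heat shock protein of lens and muscle that binds desmin and other filaments. Its brighter probe had levels of 2.90, 2.81, 2.63 and 2.76 in Id1KO_Zrf1KD, 0.22, 0.20, 0.34 and 0.35 in Id1KO, and 0.66, 0.64, 0.48 and 0.50 in WT. Id1KO_Zrf1KD stood far above the other groups, which did not overlap either. The increase over Id1KO was 5.65-fold (log2 2.50, SE 0.07, adjusted p = 2.34e-10) and that over WT 4.61-fold (log2 2.21, SE 0.07, adjusted p = 3.77e-10), while Id1KO fell by 0.29 against WT (SE 0.07, adjusted p = 0.00268). A second Cryab probe, more than 3 kilobases away on chromosome 9 in build mm9, gave log2 fold changes of 2.65, 2.11 and -0.55 in the same 3 comparisons. Within slides the increase over Id1KO on the brighter probe was 2.42 to 2.49.

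Besides the members, 6 genes listed as small heat shock proteins were tested. The list goes by gene symbol, and whether each protein, such as that of Hspb11, belongs to the family was not checked. In Id1KO_Zrf1KD against Id1KO, 1 of the 6 rose and 4 fell, against 32.3% and 39.8% of all genes. The median log2 fold change of the 6 was -0.34. The 1 that rose was Cryaa, which encodes alpha-A-crystallin, the lens partner of Cryab (log2 0.93, adjusted p = 3.26e-06), and with the deposited values or normexp a second gene passed as higher. Hspb11 (log2 -0.79), Hspb6 (-0.51) and Hspb9 (-0.95) fell without overlap. Hspb2, whose annotated gene overlaps that of Cryab on chromosome 9, fell by 0.17 with overlapping groups (adjusted p = 0.0229) and was 0.63 lower in Id1KO_Zrf1KD than in WT on the log2 scale. In Id1KO against WT, 3 of the 6 rose and 1, Hspb2 (-0.46), fell, against 42.5% and 29.6% of all genes. Hspb3, a small heat shock protein of muscle, had no WT array well above background. Over WT it was higher by at least 3.63-fold in Id1KO_Zrf1KD and by at least 2.61-fold in Id1KO.

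Listed actin and filament partners of the small heat shock proteins rose in 8 of 8 cases in Id1KO_Zrf1KD against Id1KO. Like the members and the other lists, this list was chosen with earlier results of these data known, and 32.3% of all genes rose. The partners had a median log2 fold change of 0.77. They were led by the filamin gene Flnc (2.22), the actin-bundling synaptopodin gene Synpo (1.96) and the intermediate filament genes Vim (0.98) and Des (0.95), which encode vimentin and desmin. In Id1KO against WT 5 of the 8 fell and 2 rose, against 29.6% and 42.5% of all genes. Of the 2 that rose, Synpo2 was well above background on 1 of 4 WT arrays. Synpo was at -1.47, Des at -1.11, Flna at -1.01 and Flnc at -0.88. Under quantile normalization 7 fell and 1 rose, against 34.7% and 35.2% of all genes. The beta-actin gene Actb was then at -0.40 in place of 0.13. The fibroblast and extraembryonic endoderm marker sums given above were lowest in Id1KO and highest in Id1KO_Zrf1KD. In Id1KO against WT, 9 of the 15 and 7 of the 12 markers fell, and 3 of each list rose. Id1KO was likewise the lowest group for most of these filament genes and for the members Hspb1, Hspb8, Cryab, Hspd1 and Bag3. Hspb8 was highest in WT, and Hspd1 and Bag3 did not pass between Id1KO_Zrf1KD and WT. Of the other members, Hspa1a and Hsph1 rose in both comparisons and Hsp90aa1 in Id1KO against WT only. Hspe1 went the opposite way in both. A link to the cell type markers was not tested.

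Hspd1 encodes HSP60, the chaperonin of the mitochondrial matrix, and Hspe1 its lid HSP10. Hspd1 had levels of 6.87, 6.90, 7.09 and 6.83 in Id1KO_Zrf1KD, 6.18, 6.37, 6.17 and 6.23 in Id1KO, and 6.72, 6.66, 6.91 and 6.80 in WT. Hspe1, on its brightest probe, had levels of 6.24, 6.19, 6.26 and 6.23 in Id1KO_Zrf1KD, 7.16, 7.34, 7.13 and 7.24 in Id1KO, and 6.18, 6.10, 6.29 and 6.17 in WT. All 4 Id1KO arrays were thus the lowest for Hspd1 and the highest for Hspe1, and the other 2 groups overlapped for both genes.

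In Id1KO_Zrf1KD against Id1KO, Hspd1 rose 1.60-fold (log2 0.68, SE 0.07, adjusted p = 7.39e-06) and Hspe1 fell by 0.99 on the log2 scale (SE 0.06, adjusted p = 4.17e-08). The 2 genes share the stretch printed above, and its part in these changes was not tested. In Id1KO against WT, Hspd1 fell by 0.53 (SE 0.07, adjusted p = 5.09e-05) and Hspe1 rose 2.05-fold (log2 1.03, SE 0.06, adjusted p = 2.55e-08). Within the 3 slides Hspd1 was 0.67 to 0.81 higher and Hspe1 0.90 to 1.05 lower in Id1KO_Zrf1KD than in Id1KO on the log2 scale. With quantile normalization the Id1KO changes against WT were -0.84 for Hspd1 and 0.68 for Hspe1, and the opposite signs held. Between Id1KO_Zrf1KD and WT neither gene passed (log2 0.15, SE 0.07, adjusted p = 0.101 for Hspd1; log2 0.04, SE 0.06, adjusted p = 0.542 for Hspe1). The Hspd1 difference from WT passed with the slide as a block (0.19, adjusted p = 0.0151) and without WT replicate 3 (0.19, adjusted p = 0.0440).

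The array has 3 Hspe1 probes, and the brightest and the second cover the same place in the transcript. Of all 30879 probes tested, 71 percent changed in Id1KO_Zrf1KD against Id1KO and 70.4% in Id1KO against WT. The 2 probes overlap by 57 bases and are identical at 56 of them. The stretches are shown around the 1 base that differs, in capitals, which is C12T from the second to the brightest probe, counted from 1 at the 5′ end of the overlap.
Hspe1 second probe: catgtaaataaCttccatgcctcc
Hspe1 brightest probe: catgtaaataaTttccatgcctcc
The second probe had log2 fold changes of -1.0 in Id1KO_Zrf1KD against Id1KO (SE 0.07, adjusted p = 1.53e-07 over 30879 probes) and 1.01 in Id1KO against WT (SE 0.07, adjusted p = 1.20e-07). The brightest probe also shares a run of 30 or more bases with an array probe named for a region of chromosome 12, which gave -1.04 and 1.10 in the same comparisons. Signal from near-identical copies can therefore not be told apart from that of Hspe1 on these probes.

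The third Hspe1 probe lies elsewhere in the transcript, at chr1:55147620-55147946 on the plus strand of mm9, where 60 bases are spread over 327 and so span a splice junction. Its levels were -1.97, -1.67, -0.18 and -1.71 in Id1KO_Zrf1KD, 0.69, 1.07, -1.0 and -0.60 in Id1KO, and -1.26, -1.60, -0.35 and 0.07 in WT. In every group the arrays of slide 3 were the highest on this probe, and the groups overlapped. Without regard to slide it fell by 1.42 in Id1KO_Zrf1KD against Id1KO (SE 0.56, adjusted p = 0.0413) and did not pass in Id1KO against WT (log2 0.82, SE 0.56, adjusted p = 0.212). With the slide as a block the 2 values were -1.03 (SE 0.16, adjusted p = 0.000365) and 0.82 (SE 0.16, adjusted p = 0.00122). Within slides it was 0.84, 1.06 and 1.06 lower in Id1KO_Zrf1KD than in Id1KO on slides 1, 2 and 3, in the direction of the other probes.

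**Figure D4:**
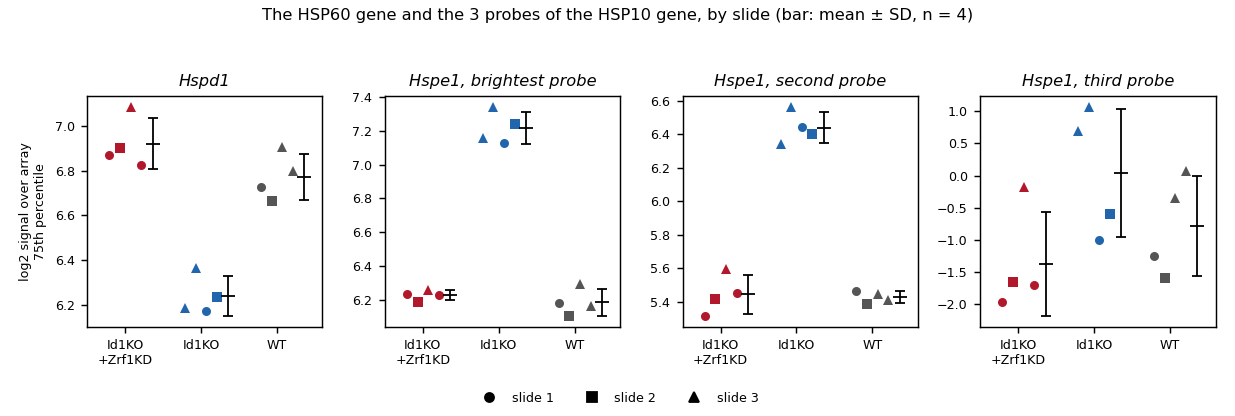
Level (log2 processed signal over the array's 75th percentile) of Hspd1 and of the 3 Hspe1 probes on each array, with a marker shape per slide, the groups left to right as Id1KO_Zrf1KD, Id1KO and WT, and the mean ± SD of 4 arrays as a bar. Id1KO is low for Hspd1 and high for the first 2 Hspe1 probes, and on the third probe the triangles of slide 3 lie above the other markers of their group.

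In Id1KO_Zrf1KD against Id1KO, 3 of 11 listed genes of mitochondrial proteases and stress responses rose, 3 fell and 5 did not pass, shares not far from the 32.3% and 39.8% of all genes. The inner membrane protease gene Afg3l2 rose by 0.54 and the related Yme1l1 fell by 0.47 on the log2 scale. The exchange factors of mitochondrial HSP70, Grpel1 and Grpel2, fell by 0.55 and 0.69 and rose by 1.01 and 0.36 in Id1KO against WT, the directions of Hspe1. Hspa9, the mitochondrial HSP70 itself, had log2 fold changes of 0.53 (adjusted p = 8.61e-07) and -0.18 (adjusted p = 0.00328) in the same comparisons, the directions of Hspd1.

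Across the rest of the HSP70 family, 8 of 10 tested genes rose in Id1KO_Zrf1KD against Id1KO, 1 fell and 1 did not pass. Of all genes 32.3% rose and 39.8% fell. The 10 family genes had a median log2 fold change of 0.56. Those that rose included Hspa4 (0.60), an HSP110 gene, and Hspa5 and Hyou1 (0.66 and 0.86), which encode the HSP70 and HSP110 proteins of the endoplasmic reticulum. Hspa14, the ribosome-associated partner of Zrf1, was 0.18 higher (adjusted p = 0.0286). Hspa8, the constitutive cytosolic HSP70, fell by 0.43 (adjusted p = 0.000336), but was 0.10 higher and did not pass with quantile normalization (adjusted p = 0.297). In Id1KO against WT 7 of the 10 fell and 2 rose, against 29.6% and 42.5% of all genes. Under the other scalings 8 fell and 1 rose, against 34.3% to 34.7% and 35% to 35.2% of all genes. Hyou1 was at -0.72, Hspa2 at -0.96 and Hspa13 at 0.62.

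Of 12 stress-associated J-domain genes, which serve HSP70 as Zrf1 does, 11 were higher in Id1KO_Zrf1KD than in Id1KO and none lower. Their median was 0.52, and of all genes 32.3% were higher and 39.8% lower. Dnajb1, the classic heat-inducible J-domain gene, rose by 0.51 (SE 0.04), and the endoplasmic reticulum gene Dnajb9 by 0.84. In Id1KO against WT 6 of the 12 rose and 5 fell, against 42.5% and 29.6% of all genes. Dnajb9 was 0.59 higher and Dnaja4 0.80 lower in Id1KO. Under the other scalings 3 of the 12 rose in that comparison, against 35% to 35.2% of all genes. Among 10 BAG and other HSP70 regulators, 6 rose and 2 fell in Id1KO_Zrf1KD against Id1KO, beside 32.3% and 39.8% of all genes. Bag5, a nucleotide exchange factor, was higher in both steps (log2 1.10 and 0.59).

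Of 16 genes of the HSP90 list 7 rose, 2 fell and 7 did not pass in Id1KO_Zrf1KD against Id1KO, with a median of 0.13. Of all genes 32.3% rose and 39.8% fell. Under each of the 3 other scalings 9 of the 16 rose, against 35.3% to 35.6% of all genes, and the 2 that fell no longer passed as lower. Hsp90b1, the HSP90 gene of the endoplasmic reticulum, rose by 0.29 in that comparison and fell by 0.70 in Id1KO against WT. Of the 8 CCT subunit genes, which fold actin and tubulin, 2 rose, 3 fell and 3 did not pass in Id1KO_Zrf1KD against Id1KO. With the other scalings 3 or 4 rose and 2 fell, against 35.3% to 35.6% and 33.6% to 34% of all genes. Cct4 fell by 0.56 in Id1KO_Zrf1KD against Id1KO and rose by 0.68 in Id1KO against WT.

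Of 6 genes listed as heat shock factors or their regulators, 1 rose and 5 fell in Id1KO_Zrf1KD against Id1KO, against 32.3% and 39.8% of all genes. Among the 5, Hsf4 had overlapping groups and was well above background on 2 of 4 Id1KO_Zrf1KD arrays. With each of the other scalings 4 fell, against 33.6% to 34% of all genes. The 1 that rose was Hsf1, the main activator of the heat shock response (log2 0.27, SE 0.06, adjusted p = 0.00300), which had fallen by 0.31 in Id1KO against WT (adjusted p = 0.000978). Hsf2 fell by 0.26 (adjusted p = 0.000992), Hsbp1, which encodes an inhibitor of HSF1, by 0.46, and Hsf5, a factor of the male germline, by 1.65. Levels of Hsf1 mRNA were 1.22 to 1.34 in Id1KO_Zrf1KD, 0.86 to 1.13 in Id1KO and 1.23 to 1.43 in WT. These arrays measure mRNA and not the activity of HSF1.

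**Figure D5:**
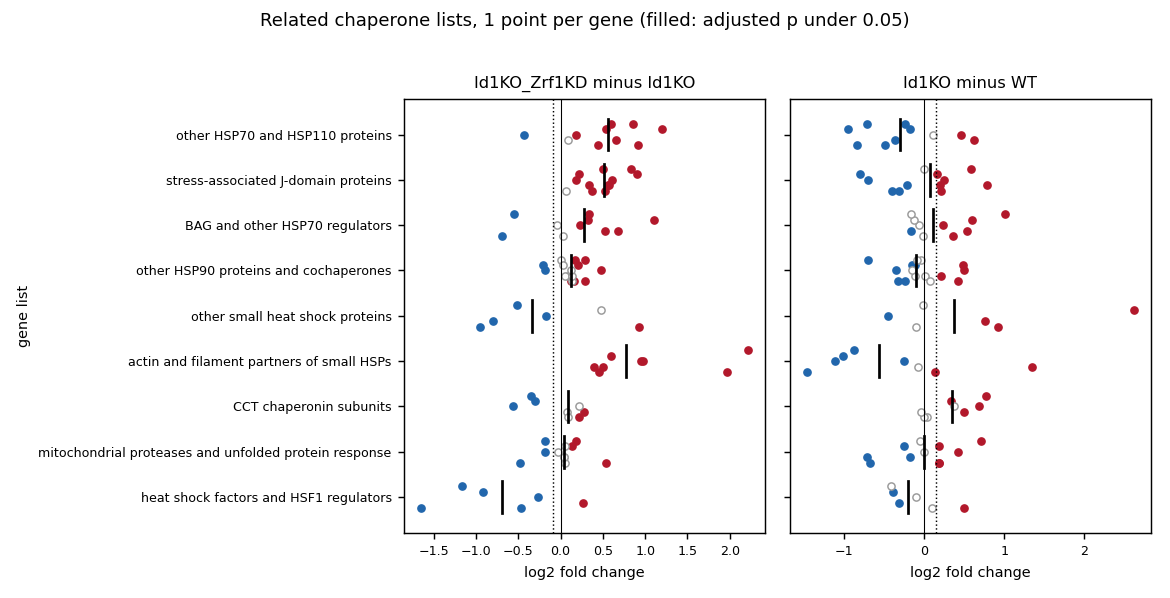
Log2 fold changes of the genes of 9 related lists (rows), with 1 point per gene, in Id1KO_Zrf1KD against Id1KO and in Id1KO against WT. Red points passed as higher, blue as lower, open grey points did not pass, the black bar is the list's median and the dotted line the median of all genes. The filament partners, J-domain and HSP70 lists lie mostly to the right of the dotted line in Id1KO_Zrf1KD against Id1KO. The Hspb3 point in the second panel rests on WT signals not well above background. For the Synpo2 point of that panel 1 of 4 WT arrays was well above background. For the Hsf4 point of the first panel 2 of 4 Id1KO_Zrf1KD arrays were.

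The genes most like a member over the 12 arrays were found by Pearson's correlation of the level among 13611 gene symbols. For Hspb1 they were Morc4 (r = 0.998), C3 (0.995) and Ubfd1 (0.995), for Hspd1 Mcm3 (0.995), Fam171a1 (0.994) and Nudt4 (0.992), and for Hsp90aa1 Idi1, Ccdc59 and Lamp3 (0.985, 0.985 and 0.983). The 12 arrays fall into 3 groups, so these values mostly reflect 3 group means.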

How the data were processed

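The scanner files hold spot intensities, which the authors made with Agilent Feature Extraction 10.7.3.1, per the file headers: a processed signal (with subtraction of background and detrending of each array), a raw mean signal and a local background, with other columns of flags per spot. The deposited table holds the authors' log2 values with equal medians, and how they were normalized was not stated in any label or header. Probe positions are on mm9, per the file headers.

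Here log2 of the processed signal minus that of the array's 75th percentile was computed without control and outlier spots. Of 55681 probes, 30879 were well above background on all 4 arrays of a group, and the brightest probe stood for each of 22590 gene names. limma 3.58.1 (R 4.3.3, data.table package, version 1.17.8) tested the groups in 1 fit with a mean per group. The fit was also run on simulated data with few shifted genes, independent noise and no slide effect. That run checks the code and cannot speak to slide effects or to changes in most genes. The number of arrays limits the precision. Members and gene lists were chosen with earlier results of these data known. Named were all members, up to 4 genes per list and comparison with the smallest adjusted p, and Dnajc2, Id1, Hsf1, Hsf2, Hspa8, Hspa5, Hsp90ab1 and Hspa14. Some other genes are named where they limit a count or a sum. Alternatives were other scalings, probe rules, blocks for slide or replicate number, and leaving out each array.

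Replicate numbers are shared between groups, but deviations from the group means of same-numbered arrays correlated between -0.44 and 0.40 (12 pairs, median -0.20), so the numbers were not used as pairs. Arrays of the same slide correlated between 0.06 and 0.40 (16 pairs, median 0.24), and the fit with the slide as a block is an alternative.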

Additional observations from a re-analysis of the deposited data

Results flagged for a closer look

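Of 27 groups of 4 arrays tested (9 members in 3 groups), 1 held an array that stood apart from the other 3. This was Hspa1a in Id1KO_Zrf1KD, where replicate 3 had a level of 0.43 and the others 0.66 to 0.69. The gap was 0.873 of the group's range, above Dixon's critical value for 4 samples, which chance exceeds in about 5% of such groups. Replicate 3 is the only Id1KO_Zrf1KD array on slide 3, where 3 of the 4 lowest Hspa1a levels of the other groups also lay, and the part of the slide was not tested. Without this replicate the Id1KO_Zrf1KD increase over Id1KO kept its direction and its call.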

How the results depend on the processing

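For 27 member results (9 genes in 3 comparisons), 19 of the 23 alternative settings applied to each, since leaving out an array bears only on the comparisons that use its group. Of the 513 values, 492 kept their direction and their side of the threshold, 6 lost and 5 gained a call, and 10 changed sign. With quantile normalization, normexp with quantile normalization and the deposited values, 2 members rose in Id1KO against WT under each, since Hsp90aa1 turned to -0.13, -0.073 and -0.0675 and Hsph1 lost its call. Under the same settings the Id1KO_Zrf1KD difference from WT turned to -0.069, -0.079 and -0.0675 for Hspe1 and to -0.058, -0.068 and -0.0725 for Bag3, neither of which passed in any setting, and the mean of the kept probes gave -0.18 for Hspe1. The cause was not tested. With the replicate number as a block 7 members rose and 1 fell in Id1KO_Zrf1KD against Id1KO, 4 rose and 5 fell in Id1KO against WT, and 5 rose and 1 fell in Id1KO_Zrf1KD against WT, and no member's call changed. With the slide as a block the counts were the same, except that 6 members rose in Id1KO_Zrf1KD against WT, Hspd1 being added. Hsp90aa1 also rose in Id1KO_Zrf1KD against Id1KO under the 3 other scalings, for 8 members in all, beside 35.3% to 35.6% of all genes. Signal over background limits none of the 13 probes, but Hspb3 has only a bound. Other listed genes, among them Synpo2, Hsf4 and Lum, also lacked signal well above background on some arrays.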
